A study of Mus musculus with 10 samples.

Results

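Genes of cholesterol and fatty acid synthesis were followed in B cells from the spleens of Irf4-/- mice, which lack both intact copies of the transcription factor gene Irf4, and of Irf4+/+ littermates. The set was a list of 33 symbols, 18 enzymes of the sterol route, 4 genes of sterol regulation and transport and 11 enzymes of fatty acid synthesis. It was matched by symbol to the probe sets of a 1-colour Affymetrix array, and the brightest probe set, averaged over the 10 arrays, stood for its gene. Of the 33 genes, 32 had a probe set and passed the filter on dim signal, out of 12253 genes tested. Acat2 was not analysed here.

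All mice were C57BL/6 and 12 weeks old. B cells were enriched by removing other spleen cells magnetically, so cells that escaped removal can remain. Every sample was then cultured for 3 days with IL-4 (20 ng/ml) plus a CD40 antibody, so no unstimulated cells enter the comparison. There were 5 Irf4-/- and 5 Irf4+/+ arrays. Whether each array stands for its own mouse or culture is not in the labels, so the spread behind every p-value is that between samples and may be technical.

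Cells make cholesterol from acetyl-CoA through mevalonate, farnesyl diphosphate, squalene and lanosterol, and they make fatty acids from the same acetyl-CoA through malonyl-CoA. Both routes are switched on by the SREBP transcription factors, which SCAP escorts from the endoplasmic reticulum when sterols run low and which INSIG proteins hold back when sterols are plentiful. Lymphocytes that enter the cell cycle use both routes to build new membranes.

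Signals are deposited linear MAS5 values in arbitrary units. Fold changes come from log2(signal + 7.9), Irf4-/- minus Irf4+/+, and calls were made at adjusted p under 0.05 in limma with Benjamini-Hochberg adjustment over the 12253 genes. Array medians were 39.9 to 45.0 in Irf4-/- and 37.2 to 42.7 in Irf4+/+ samples. The 3′ to 5′ ratio of the Actb control was 1.08 to 1.13 in Irf4-/- and 1.11 to 1.17 in Irf4+/+ samples, and the 18S ribosomal RNA control was 126.2 to 289 in Irf4-/- and 58.1 to 104.9 in Irf4+/+ samples. Irf4 itself had 2821, 2989, 2766, 2638 and 2748 units in Irf4-/- samples, against 3899, 3745, 3758, 3978 and 3426 units in Irf4+/+ samples (log2 fold change -0.43, adjusted p = 5.01e-06 in limma). The labels do not place this probe set inside or outside the disrupted region, and its signal therefore does not check the genotype.

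Genes that mark B cells averaged 2228 units or more in each genotype, except Pax5 (326.7 in Irf4-/- and 147 in Irf4+/+ samples). Their summed signal was 59220 to 66440 in Irf4-/- and 38280 to 42280 in Irf4+/+ samples, and 6 of the 7 tested were called higher in Irf4-/- samples. Natural killer cell markers were called higher for all 9 of 9 tested, with sums of 11520 to 15970 in Irf4-/- against 1301 to 1544 in Irf4+/+ samples. Most of these sums came from the granzyme genes Gzma (mean 8256 in Irf4-/- and 818.6 in Irf4+/+) and Gzmb (4868 and 362). No other marker of this list averaged above 297.3 units in Irf4-/- samples, and Ncr1 averaged 45.66 there against 16.2 in Irf4+/+ samples. Macrophage markers were called higher for 3 of 6 tested (sums of 1258 to 1468 in Irf4-/- and 451.3 to 532.9 in Irf4+/+). Csf1r, Mrc1 and Fcgr1 were not called, while Cd14, C1qa and C1qb were too dim to test. Granulocyte markers were called higher for 2 of 4 (468.2 to 793.3 in Irf4-/- and 96.0 to 169.8 in Irf4+/+), with Camp, Ltf and Csf3r too dim. Dendritic cell markers were called higher for 2 and lower for 2 of 4 (729 to 797.4 in Irf4-/- and 1023 to 1181 in Irf4+/+), with Siglech, Xcr1 and Cd209a too dim. T cell markers were called higher for 1 and lower for 1 of 4 (251.2 to 285.1 in Irf4-/- and 221.1 to 290.2 in Irf4+/+), with Cd3e, Cd3d, Cd3g, Cd4 and Cd8b1 too dim. The part of these cells in the results below was not tested, and in bulk samples fewer cells of a type and less RNA per cell cannot be told apart.

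The lipid synthesis genes did not move as a block. Among 32 members, Irf4-/- samples had 6 called higher and 12 called lower, 18 in all. That is 56.2% of the members, where 47.2% of all genes tested were called, 23.3% higher and 23.9% lower. The median log2 fold change was -0.02 over the members and 0.00 over all genes, and the median absolute change was 0.29 in each. The groups did not overlap for 16 members, 5 above and 11 below, beside 35.7% of all genes. What set single members apart was their size: Elovl6 had the 39th lowest fold change of the 12253 genes and Lss the 408th lowest, while Scd1 was 913th from the top.

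**Figure D1:**
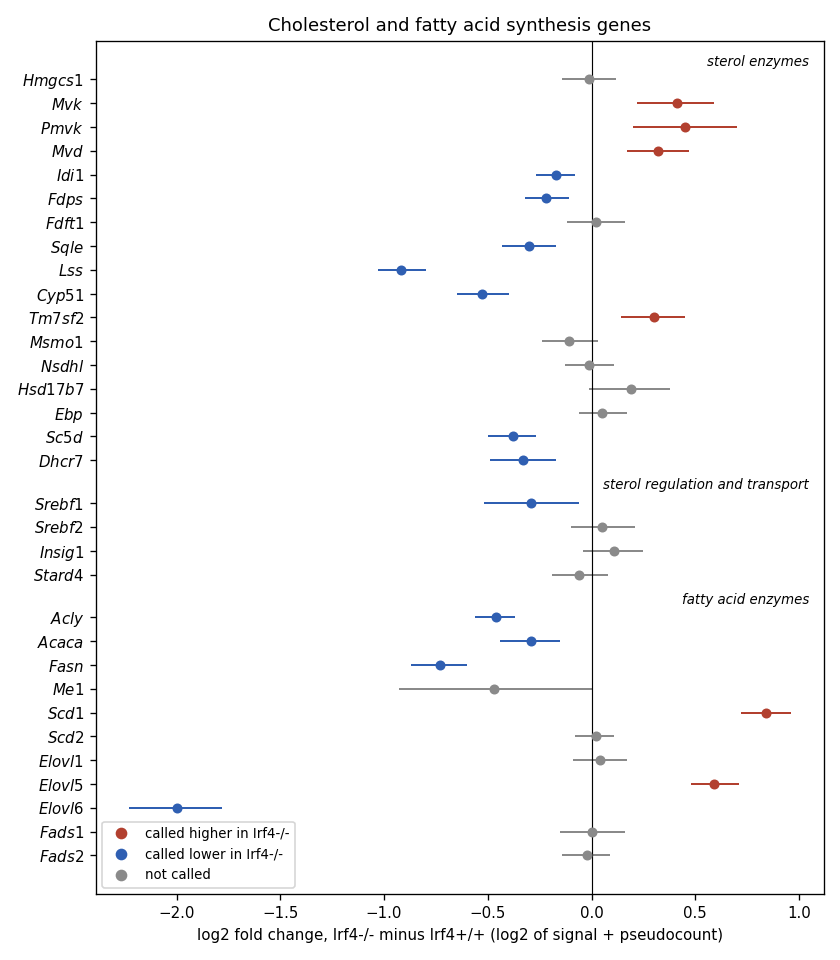
Log2 fold change of each of the 32 members tested, Irf4-/- minus Irf4+/+, with its 95% confidence interval, in the order of the sterol route, then sterol regulation and transport, then fatty acid synthesis. Red points were called higher in Irf4-/- samples, blue lower, and grey were not called; 3 consecutive mevalonate enzymes (Mvk, Pmvk and Mvd) lie to the right of 0, and Elovl6 lies farthest to the left at -2.0.

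Enzymes of the sterol route went both ways. Of 17 enzymes tested, 4 were called higher (Mvk, Pmvk, Mvd and Tm7sf2), 7 lower (Idi1, Fdps, Sqle, Lss, Cyp51, Sc5d and Dhcr7) and 6 were not called, with a median log2 fold change of -0.01. The 64.7% called compares with the 47.2% over all genes. Changes were small: only Lss was called at 1.5-fold or more, where 19.8% of all genes were.

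The first enzyme of the route to be tested was the cytosolic HMG-CoA synthase Hmgcs1, since Acat2, listed before it, was not analysed. Hmgcs1 averaged 8332 ± 438 units in Irf4-/- against 8405 ± 666 units in Irf4+/+ samples (SD, n = 5 each). Its log2 fold change was -0.01 with a 95% confidence interval of -0.14 to 0.12 (adjusted p = 0.905 in limma). Its 4 further probe sets had log2 fold changes of -0.06 to 0.17, none of them called.

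The 3 enzymes that follow mevalonate, which phosphorylate it in turn and then decarboxylate it, were higher in Irf4-/- samples. Mevalonate kinase, Mvk, averaged 430 ± 22 units in Irf4-/- against 324.2 ± 42.8 units in Irf4+/+ samples, 1.33-fold higher (adjusted p = 0.000982 in limma; SD, n = 5). Phosphomevalonate kinase, Pmvk, averaged 573 ± 79.4 in Irf4-/- against 418.9 ± 73.8 in Irf4+/+ samples, 1.37-fold higher (adjusted p = 0.0043 in limma; SD, n = 5). The diphosphomevalonate decarboxylase Mvd averaged 899.2 ± 50.5 in Irf4-/- against 719 ± 65.5 in Irf4+/+ samples, 1.25-fold higher (adjusted p = 0.00112 in limma; SD, n = 5). Every Irf4-/- array lay above every Irf4+/+ array for Mvk and Mvd, but not for Pmvk, whose Irf4-/- values ran from 454.7 to 658.5 and whose Irf4+/+ values ran from 341.9 to 529.2. The second probe sets of Mvk and Mvd had the same sign and were not called (log2 fold changes of 0.24 and 0.18, adjusted p = 0.111 and 0.171 when limma ran on every probe set). Mvd lost its call when probe sets shared between transcripts were left out, because that second probe set then stood for it.

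The next enzymes, which make and join the isoprene units, were slightly lower. Isopentenyl diphosphate isomerase, Idi1, had 7111, 7538, 7285, 7060 and 7030 units in Irf4-/- samples, against 8023, 8663, 8316, 7971 and 7706 units in Irf4+/+ samples (1.13-fold lower, adjusted p = 0.00539 in limma). Farnesyl diphosphate synthase, Fdps, which also supplies the chains for protein prenylation, was 1.16-fold lower (3866 ± 94.4 in Irf4-/- against 4497 ± 271 in Irf4+/+ samples; SD, n = 5; adjusted p = 0.00206 in limma). The ranges did not overlap for either gene although the differences were under 1.2-fold. Squalene synthase, Fdft1, commits farnesyl diphosphate to sterols. It had a log2 fold change of 0.02 (95% confidence interval -0.12 to 0.16), and the sign of so small a value changed with the scaling.

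The 2 largest falls of the route, those of Lss and Cyp51, lay around lanosterol. Squalene epoxidase, Sqle, a rate-controlling step, was 1.23-fold lower (2231 ± 132 in Irf4-/- against 2747 ± 210 in Irf4+/+ samples; SD, n = 5; adjusted p = 0.000731 in limma). Lanosterol synthase, Lss, which folds squalene epoxide into the first sterol, had 882.3, 881.9, 928.1, 876.7 and 861.4 units in Irf4-/- samples, against 1655, 1686, 1809, 1706 and 1558 units in Irf4+/+ samples. The lowest Irf4+/+ array was well above the highest Irf4-/- array. The fall was 1.89-fold (log2 fold change -0.92, SE 0.0543, adjusted p = 7.02e-10 in limma), and the other Lss probe sets gave -0.61 and -0.69, both called. Lanosterol demethylase, Cyp51, had 1972, 1887, 2125, 2093 and 1882 units in Irf4-/- samples, against 2947, 2947, 3001, 2867 and 2593 units in Irf4+/+ samples. These ranges were also apart. The fall was 1.44-fold (log2 fold change -0.53, SE 0.0569, adjusted p = 9.83e-07 in limma), with -0.71 and -0.58 on its further probe sets.

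The enzymes after Cyp51 went different ways. The sterol reductase Tm7sf2 was 1.23-fold higher (454.2 ± 18.9 in Irf4-/- against 369.1 ± 32.8 in Irf4+/+ samples; SD, n = 5; adjusted p = 0.00322 in limma). The enzymes that strip the methyl groups from the ring and shift its double bond were not called: log2 fold changes were -0.11 for Msmo1 (95% confidence interval -0.24 to 0.03), -0.01 for Nsdhl (-0.13 to 0.11), 0.19 for Hsd17b7 (-0.01 to 0.38) and 0.05 for Ebp (-0.06 to 0.17). Hsd17b7 was called without Irf4+/+ replicate 2 (0.24, adjusted p = 0.0407 in limma). The final reductase, Dhcr7, was 1.26-fold lower (751 ± 83.4 in Irf4-/- against 941.6 ± 49.9 in Irf4+/+ samples; SD, n = 5; adjusted p = 0.00208 in limma).

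The desaturase Sc5d, which acts just before Dhcr7, depended on the probe set. Its brightest probe set averaged 1737 ± 98.1 in Irf4-/- against 2267 ± 101 in Irf4+/+ samples, 1.30-fold lower (SD, n = 5; adjusted p = 2.16e-05 in limma). Its 2 dimmer probe sets had log2 fold changes of 0.02 and 0.00, and with the mean of the 3 the fall was not called (-0.12, adjusted p = 0.248 in limma).

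**Figure D2:**
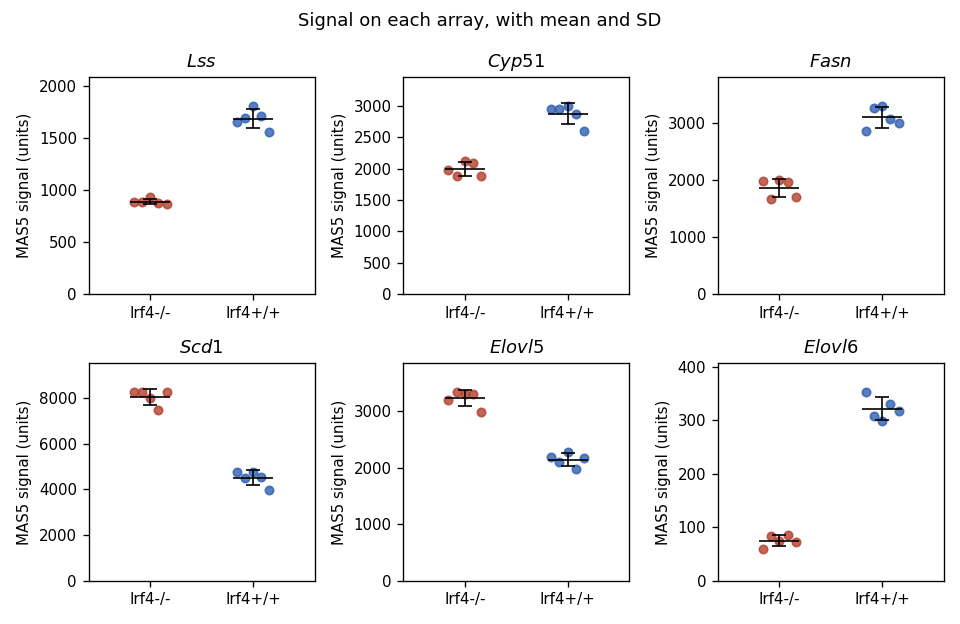
MAS5 signal on each array for the 6 called members with an absolute log2 fold change of at least 0.5, with Irf4-/- arrays in red on the left and Irf4+/+ arrays in blue on the right of each panel; black bars give the mean and SD of 5 arrays. The groups are apart in every panel, and Scd1 and Elovl5 are higher in Irf4-/- samples while Lss, Cyp51, Fasn and Elovl6 are lower.

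Of the 4 listed genes of sterol regulation and transport, 3 were not called. This does not cover the further list of SREBP processing and sterol uptake given below. There 6 of 10 genes tested fell and 1 rose, 70.0% called beside 47.2% of all genes. Among those that fell was the SREBP escort Scap, which was not called with the mean of its probe sets. Srebf2, which encodes the SREBP that mainly drives sterol genes, averaged 1474 ± 142 units in Irf4-/- against 1420 ± 101 units in Irf4+/+ samples (SD, n = 5), with a log2 fold change of 0.05 and a 95% confidence interval of -0.10 to 0.21. Insig1, which holds SCAP in the endoplasmic reticulum and is itself an SREBP target, had a log2 fold change of 0.11 (-0.04 to 0.25). Stard4, a cytosolic sterol carrier, had -0.06 (-0.19 to 0.08), and 1 of its 2 further probe sets was called lower (-0.23, adjusted p = 0.0212 when limma ran on every probe set).

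Srebf1, which encodes the SREBP proteins that mainly drive fatty acid genes, was the 1 of these 4 genes to be called, and the call was weak. It had 1271, 1275, 1300, 1465 and 1014 units in Irf4-/- samples, against 1295, 1341, 1964, 1512 and 1667 units in Irf4+/+ samples. The groups overlapped, and the fall was 1.22-fold (log2 fold change -0.29, SE 0.109, adjusted p = 0.0381 in limma). The call was lost when any of Irf4+/+ replicates 3, 4 and 5 or Irf4-/- replicates 1, 2, 3 and 5 was left out, with adjusted p from 0.015 to 0.109 in limma over the 10 arrays left out. The 25.0% called in this group of 4 is below the 47.2% over all genes.

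Fatty acid synthesis showed the widest spread. Of 11 enzymes, 2 were called higher (Scd1 and Elovl5), 4 lower (Acly, Acaca, Fasn and Elovl6) and 5 were not called, with a median log2 fold change of -0.02. The 54.5% called is near the 47.2% over all genes. Of these 6, 4 changed at least 1.5-fold (Fasn, Scd1, Elovl5 and Elovl6).

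The core enzymes that turn citrate into palmitate were all lower in Irf4-/- samples. ATP citrate lyase, Acly, which releases cytosolic acetyl-CoA for both routes, was 1.38-fold lower (2933 ± 48.4 in Irf4-/- against 4047 ± 127 in Irf4+/+ samples; SD, n = 5; adjusted p = 2.57e-07 in limma). Acetyl-CoA carboxylase, Acaca, which makes malonyl-CoA, was 1.22-fold lower (575 ± 44.1 in Irf4-/- against 704.6 ± 32.2 in Irf4+/+ samples; SD, n = 5; adjusted p = 0.00183 in limma). Fatty acid synthase, Fasn, had 1974, 1670, 2002, 1957 and 1702 units in Irf4-/- samples, against 2857, 3265, 3300, 3065 and 2997 units in Irf4+/+ samples. For all 3 genes the highest Irf4-/- array lay below the lowest Irf4+/+ array. Fasn fell 1.66-fold (log2 fold change -0.73, SE 0.065, adjusted p = 9.44e-08 in limma). Malic enzyme, Me1, which supplies NADPH, was dim at 39.3 ± 8.68 in Irf4-/- against 58.1 ± 17.8 units in Irf4+/+ samples (SD, n = 5) and was not called (log2 fold change -0.47, 95% confidence interval -0.93 to 0.00). It was called without Irf4+/+ replicate 1 (-0.57, adjusted p = 0.0475 in limma).

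The elongases Elovl6 and Elovl5 moved in opposite directions, and the elongase Elovl1 was not called. Elovl6 extends palmitate to stearate. It had 59.8, 82.5, 73.3, 86.0 and 71.9 units in Irf4-/- samples, against 353.2, 308.5, 298.3, 330.1 and 317.9 units in Irf4+/+ samples. The fall was 4.01-fold (log2 fold change -2.0, SE 0.107, adjusted p = 2.09e-10 in limma), the largest among the 32 members, and its 2 dimmer probe sets gave -1.60 and -0.94, both called. The size depends on the dim Irf4-/- signal: a pseudocount of 32 gave -1.73 and a pseudocount of 1 gave -2.10. Over all alternatives that kept every array, it ran from -2.10 to -1.51.

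Elovl5 extends polyunsaturated fatty acids. It had 3201, 3343, 3300, 3306 and 2985 units in Irf4-/- samples, against 2180, 2105, 2275, 1966 and 2166 units in Irf4+/+ samples. Every Irf4-/- array was higher, the rise was 1.51-fold (log2 fold change 0.59, SE 0.0535, adjusted p = 1.19e-07 in limma), and its second probe set gave 0.60. Within an array, log2 Elovl5 minus log2 Elovl6 was 5.14 to 5.57 in Irf4-/- and 2.55 to 2.90 in Irf4+/+ samples, a difference of 2.60. Each gene's groups were already apart, in opposite directions, so these ranges had to be apart and no p-value is given. Elovl1, which makes very long saturated chains, had a log2 fold change of 0.04 (95% confidence interval -0.09 to 0.17).

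The stearoyl-CoA desaturases, which put the double bond into stearate and palmitate, also differed. Scd1 had 8239, 8269, 8004, 7451 and 8240 units in Irf4-/- samples, against 4764, 4501, 4742, 4542 and 3976 units in Irf4+/+ samples. The groups were far apart, with a rise of 1.79-fold (log2 fold change 0.84, SE 0.0562, adjusted p = 3.38e-09 in limma) and 0.55 on the second probe set, also called. Scd2 averaged 8972 ± 269 units in Irf4-/- against 8875 ± 333 units in Irf4+/+ samples (SD, n = 5), with a log2 fold change of 0.02 and a 95% confidence interval of -0.08 to 0.11. Within an array, log2 Scd1 minus log2 Scd2 was -0.33 to -0.05 in Irf4-/- and -1.18 to -0.87 in Irf4+/+ samples, a difference of 0.82. The choice of this pair and of Elovl5 with Elovl6 followed a look at their values, so both differences are descriptions only.

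The desaturases of polyunsaturated chains were not called. Fads1 averaged 689.7 ± 37.4 units in Irf4-/- against 689.2 ± 62.9 units in Irf4+/+ samples (SD, n = 5), with a log2 fold change of 0.00 and a 95% confidence interval of -0.15 to 0.16. Fads2 had a log2 fold change of -0.02 (-0.14 to 0.09), and none of the 3 further Fads1 and Fads2 probe sets was called.

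**Figure D3:**
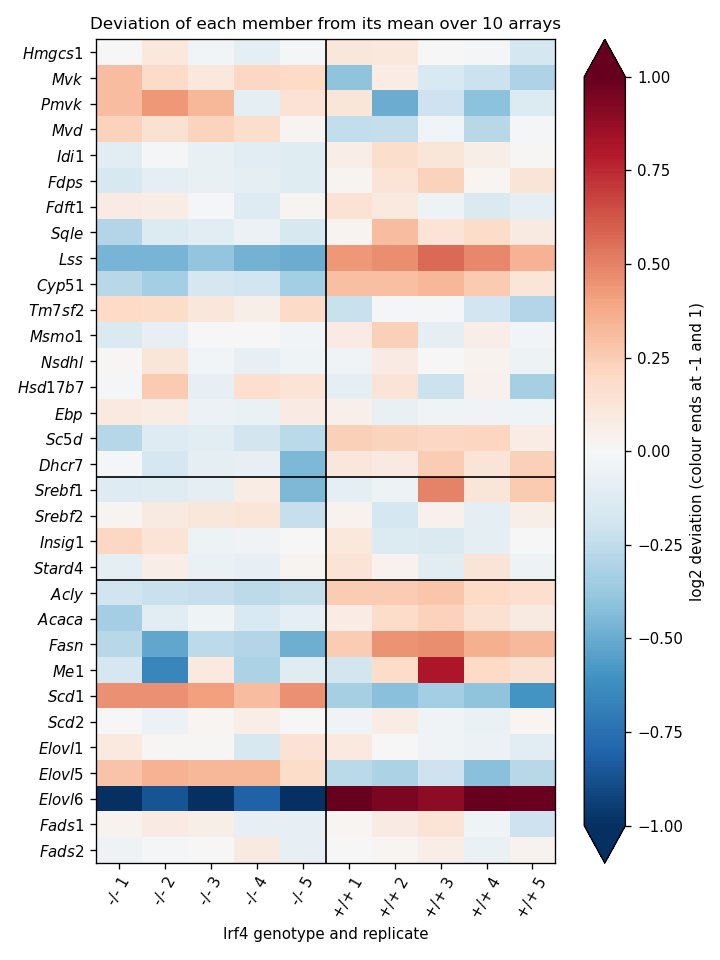
Deviation of each member's log2 signal from its own mean over the 10 arrays, with Irf4-/- arrays left of the vertical line and Irf4+/+ arrays right of it, and members in pathway order down the page; red is above and blue below the mean. Lss, Fasn and Elovl6 are blue on all 5 Irf4-/- arrays and red on all 5 Irf4+/+ arrays, and Scd1 shows the reverse.

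Replicates of a genotype were also compared over the members as a set. For the 32 members, the number above their own genotype's mean ran from 10 (replicate 5) to 22 (replicate 2) over Irf4-/- arrays and from 10 (replicate 5) to 22 (replicate 2) over Irf4+/+ arrays. The median deviation of the sterol enzymes on an array ran from -0.016 to 0.037 log2 units in Irf4-/- and from -0.077 to 0.077 in Irf4+/+ samples. That of the 4 genes of sterol regulation and transport ran from -0.154 to 0.075 in Irf4-/- and from -0.118 to 0.087 in Irf4+/+ samples. A median over several genes hides the spread of single genes, so these shifts are not comparable with the fold changes above.

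Further probe sets bear on the choice of 1 per gene. The 32 members had 75 probe sets, and 36 further ones passed the filter. Of 16 that belonged to called members, 15 had the sign of the chosen probe set and 11 of these were called. Of 20 that belonged to members not called, 1 was called, the Stard4 probe set above. Over all 22535 probe sets tested, 42.5% were called.

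**Figure D4:**
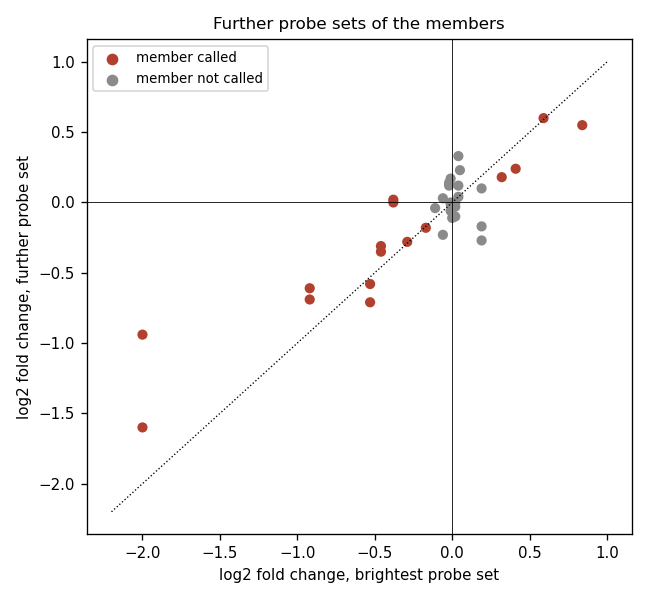
Log2 fold change (Irf4-/- minus Irf4+/+) of the 36 further probe sets of the members against that of the brightest probe set of the same gene, with the dotted line at equal values. Red points belong to called members, and 15 of these 16 share its sign; the exception is a Sc5d probe set at 0.02.

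Promoters are shown for 3 members that fell (Lss, Cyp51 and Fasn), 2 that rose (Mvk and Mvd) and Hmgcs1, so that members that moved either way or not at all can be compared. Each is the 250 bases before the gene's start in RefSeq on GRCm38.p6, 5′ to 3′ on the gene's strand. Capitals mark the CCAAT box, bound by NF-Y, a partner of SREBP (CCAAT or its complement ATTGG), and the sterol regulatory element TCACNCCAC on either strand.
Lss, chr10:76531355-76531604, plus strand: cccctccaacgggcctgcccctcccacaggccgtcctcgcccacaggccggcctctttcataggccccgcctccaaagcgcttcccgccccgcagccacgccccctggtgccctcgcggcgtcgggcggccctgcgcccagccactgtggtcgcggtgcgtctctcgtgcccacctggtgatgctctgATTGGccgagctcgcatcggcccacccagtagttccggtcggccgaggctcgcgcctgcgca
Cyp51, chr5:4104698-4104947, minus strand: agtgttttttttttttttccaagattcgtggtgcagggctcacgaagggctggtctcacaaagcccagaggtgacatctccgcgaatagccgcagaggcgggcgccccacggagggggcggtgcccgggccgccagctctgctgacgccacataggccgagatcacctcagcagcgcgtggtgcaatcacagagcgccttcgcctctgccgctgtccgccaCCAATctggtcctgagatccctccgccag
Fasn, chr11:120824548-120824797, minus strand: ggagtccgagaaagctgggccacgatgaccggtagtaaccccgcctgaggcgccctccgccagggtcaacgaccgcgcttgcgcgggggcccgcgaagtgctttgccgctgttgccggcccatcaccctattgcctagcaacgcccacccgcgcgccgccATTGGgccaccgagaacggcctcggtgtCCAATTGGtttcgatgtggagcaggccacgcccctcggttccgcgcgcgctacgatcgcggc
Mvk, chr5:114444019-114444268, plus strand: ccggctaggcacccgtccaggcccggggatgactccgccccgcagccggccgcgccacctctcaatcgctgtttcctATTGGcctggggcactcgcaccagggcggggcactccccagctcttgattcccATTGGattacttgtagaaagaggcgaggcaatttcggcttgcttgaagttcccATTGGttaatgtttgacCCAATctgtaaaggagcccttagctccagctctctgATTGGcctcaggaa
Mvd, chr8:122443423-122443672, minus strand: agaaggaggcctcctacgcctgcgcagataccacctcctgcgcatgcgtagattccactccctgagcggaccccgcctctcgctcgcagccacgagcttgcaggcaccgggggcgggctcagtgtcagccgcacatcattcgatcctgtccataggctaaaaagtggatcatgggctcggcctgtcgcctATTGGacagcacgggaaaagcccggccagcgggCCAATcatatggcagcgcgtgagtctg
Hmgcs1, chr13:119690101-119690350, plus strand: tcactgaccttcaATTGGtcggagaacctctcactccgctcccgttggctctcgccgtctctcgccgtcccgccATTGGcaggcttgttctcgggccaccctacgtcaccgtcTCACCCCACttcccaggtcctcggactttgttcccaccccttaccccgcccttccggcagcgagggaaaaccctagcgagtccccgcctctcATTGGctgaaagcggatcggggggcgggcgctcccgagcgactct

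Promoters in the RefSeq table were found for 25 of the 32 members, 32 promoters in all. A CCAAT box on either strand lay in 22 of the 32 (68.8%), in 35% of the 12669 promoters of genes tested and in 33.8% of all 32851 promoters of the same length. Mvk, which was higher in Irf4-/- samples, held 5, at 173, 120, 67, 50 and 14 bases before the start. Fasn, which was lower, held 3, at 90, 62 and 59 bases, the last 2 overlapping on opposite strands. The box was present in 5 of the 6 promoters of members called higher, 8 of the 14 of members called lower and 9 of the 12 of members not called. Every promoter printed above held it. The promoters of Elovl6, Acly and Acaca, all called lower, and of Fads2, not called, held none. These counts are of promoters and not of genes, since several promoters can belong to 1 gene. Dhcr7 and Srebf1, called lower, had 3 each, while Pmvk, called higher, and Elovl1 and Me1, not called, had 2 each. All of these genes had promoters both with and without the box.

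The sterol regulatory element in the letters above was in 1 of the 32 promoters, that of Hmgcs1, and in 1.05% of all promoters. The E-box CACGTG, which MYC and SREBP proteins can bind, was in 5 of 32 (15.6%), those of Dhcr7, Elovl5, Hsd17b7, Insig1 and Sc5d, and in 8.11% of promoters of genes tested. Of the motifs that IRF proteins bind, the interferon-stimulated response element (GAAA and GAAA 2 bases apart) was in the promoter of Ebp and in 2.98% of all promoters, and the ETS-IRF composite element (GGAA and GAAA 2 bases apart) was in both promoters of Pmvk and in 2.30% of all. Both strands were searched. A match is a description of these letters in this window and not a binding site.

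Genes around the synthesis routes were followed through 4 further lists. Of 55 such genes tested, 30 were called (54.5%, beside 47.2% of all genes), 8 higher and 22 lower, with a median log2 fold change of -0.15. The lists were SREBP processing and sterol uptake, sterol efflux and storage, acyl chain supply with lipid assembly, and fatty acid oxidation.

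In the list of SREBP processing and sterol uptake 1 of 10 genes tested rose, 6 fell and 3 were not called (median -0.25). The share called was 70.0%, beside 47.2% of all genes. Tmem97, a sterol-regulated membrane protein that binds the lysosomal cholesterol exporter NPC1, fell 2.08-fold, averaging 402.4 ± 68.9 in Irf4-/- against 838 ± 62.4 in Irf4+/+ samples (SD, n = 5; adjusted p = 2.36e-07 in limma). Scap, the SREBP escort, fell 1.45-fold (718 ± 38.0 in Irf4-/- against 1054 ± 138 in Irf4+/+ samples; SD, n = 5; adjusted p = 3.62e-05 in limma), but with the mean of its probe sets it was not called (-0.10, adjusted p = 0.472 in limma). Npc2, which carries cholesterol inside lysosomes, rose 1.45-fold (7821 ± 745 in Irf4-/- against 5369 ± 163 in Irf4+/+ samples; SD, n = 5; adjusted p = 2.1e-06 in limma). Macrophages also express Npc2. Of 6 markers of macrophages, 3 rose too and 3 were not called, as given above, and the part of macrophages in this result was not tested.

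In the list of sterol efflux and storage 2 of 9 rose, 1 fell and 6 were not called (median 0.14). The share called was 33.3%, beside 47.2% of all genes. Abcg1, which exports cholesterol and is a target of the sterol-sensing LXR receptors, had 524.4 to 612.2 units in Irf4-/- against 123 to 255.1 units in Irf4+/+ samples, 3.00-fold higher (adjusted p = 2.35e-07 in limma). Mylip, a ubiquitin ligase for lipoprotein receptors and also an LXR target, rose 1.45-fold (484.7 ± 46.0 in Irf4-/- against 331.2 ± 28.4 in Irf4+/+ samples; SD, n = 5; adjusted p = 5.55e-05 in limma). Abca1, a further LXR target named for comparison after its value was seen, had a low signal, with a log2 fold change of 0.22 (adjusted p = 0.343 in limma). Nceh1, which hydrolyses cholesterol esters, fell 1.28-fold (adjusted p = 0.0183 in limma), and was not called without Irf4+/+ replicate 2 or 4 (adjusted p = 0.052 and 0.0531) or when its probe sets were averaged (adjusted p = 0.132).

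In the list of acyl chain supply and lipid assembly 3 of 19 rose, 8 fell and 8 were not called (median -0.15). The share called was 57.9%, beside 47.2% of all genes. Hacd3 and Hacd2, dehydratases of the cycle in which the ELOVL enzymes also work, fell 2.09-fold and 1.93-fold (adjusted p = 6.12e-08 and 1.35e-07 in limma). Hacd3 averaged 618.6 ± 38.1 in Irf4-/- and 1312 ± 190 in Irf4+/+ samples, and Hacd2 1096 ± 139 in Irf4-/- against 2116 ± 206 in Irf4+/+ samples (SD, n = 5). Agpat3, an acyltransferase of phospholipid synthesis, rose 2.15-fold (1576 ± 86.9 in Irf4-/- against 731.4 ± 58.7 in Irf4+/+ samples; SD, n = 5; adjusted p = 7e-10 in limma). Idh1, which makes cytosolic NADPH, rose 1.59-fold (adjusted p = 3.5e-05 in limma).

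In the list of fatty acid oxidation 2 of 17 rose, 7 fell and 8 were not called (median -0.17). Hadh, a mitochondrial dehydrogenase of short acyl chains, fell 1.59-fold and Etfdh, which passes the electrons to ubiquinone, 1.51-fold (adjusted p = 1.54e-05 and 6.58e-05 in limma). Acadm and Hadha, a medium-chain dehydrogenase and a subunit of the trifunctional protein, each rose 1.26-fold (adjusted p = 8.76e-05 and 0.000342 in limma). The 52.9% called is near the 47.2% over all genes, which were also called in both directions (23.3% higher and 23.9% lower).

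**Figure D5:**
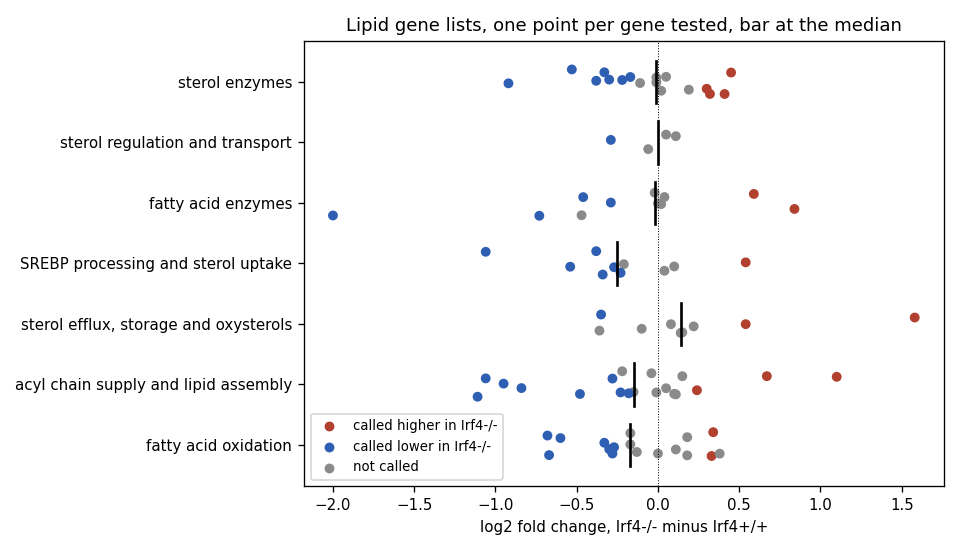
Log2 fold change (Irf4-/- minus Irf4+/+) of each gene tested in the 3 groups of members and the 4 further lipid lists, with a black bar at each list's median and points coloured by call; vertical scatter within a list has no meaning. Abcg1 lies farthest to the right at 1.58 and Elovl6 farthest to the left at -2.0.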

How the data were processed

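The authors deposited 1 linear intensity per probe set on each array, computed with MAS5, per the submitters' processing notes (version and scaling target not given in the sources used here). The mean after trimming 2% at each end was 249.9 on every array, so no further scaling was applied. Of 45101 probe sets, 34945 had 1 gene symbol, brought up to date by gene ID in a RefSeq table (34741 matched); the rest were not used for genes. Signals were taken as log2(signal + 7.9), the 20th percentile of all values, which understates changes of dim genes. Probe sets whose mean was below the 40th percentile were left out, which left 12253 of 18193 genes at 1 probe set a gene. limma 3.58.1 in R 4.3.3 (lmFit, and eBayes with a trend) was fitted with genotype as its term and was tested on simulated data. Precision is limited by the number of arrays, 5 of each genotype.

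The members and lists were chosen with earlier results of these data known. All members are named; of each further list, up to 2 called genes per direction with the smallest p and no overlap between groups. Same-numbered arrays of the 2 genotypes did not deviate together (correlations of -0.04 to 0.051 over genes), so replicate numbers were not taken as pairs. Alternatives were other pseudocounts, filters, scalings, variance models, array weights, a replicate block, probe set rules and each array left out.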

Additional observations from a re-analysis of the deposited data

Results flagged for a closer look

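Among the members and the other genes named, 2 groups of 5 arrays held a value set apart from the rest by more than 0.71 of the group's range; chance gives about 1 in 20 groups, and 94 were examined. Srebf2 was 1229.7 units in Irf4-/- replicate 5, with the nearest other Irf4-/- array at 1473.8. Sc5d was 2090.8 units in Irf4+/+ replicate 5, with the nearest other Irf4+/+ array at 2286.6. Neither changed its call when that array was left out.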

How the results depend on the processing

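Over 22 alternatives the number of sterol enzymes called was 9 to 12 (11 as reported), of fatty acid enzymes 6 to 7 (6), of the further lipid lists 29 to 32 (30) and of all genes 4887 to 6003 (5788). With the replicate block, 11 sterol enzymes, 6 fatty acid enzymes, 31 further genes and 5715 genes overall were called. The sterol regulation and transport group, whose 1 call is Srebf1, had 0 called without a filter, with quantile normalization and without a variance trend. It had 0 to 1 called with an array left out. With unshared probe sets only it also had 0 called, but Srebf1 has no unshared probe set and was not tested there. Pmvk was not tested there for the same reason, in the setting that gave 9 sterol enzymes called. The difference of 2.60 between Elovl5 and Elovl6 was 2.32 with a pseudocount of 32 and 2.11 with the mean of probe sets. Dim signal limits Me1 most, which averaged 39.3 units in Irf4-/- and 58.1 units in Irf4+/+ samples.

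Values that turned sign belonged to 10 members, none of them called as reported or in that alternative. Median scaling gave Fdft1 -0.04, Ebp -0.01, Srebf2 -0.01, Scd2 -0.05, Elovl1 -0.02 and Fads1 -0.06. The mean of probe sets gave Hmgcs1 0.02, Hsd17b7 -0.04, Scd2 -0.04, Fads1 -0.05 and Fads2 0.08. Unshared probe sets gave Fdft1 0.00, quantile normalization gave Nsdhl 0.01 and array weights gave Hmgcs1 0.00. With an array left out, Hmgcs1 ran from -0.05 to 0.02, Fdft1 from -0.01 to 0.06, Nsdhl from -0.04 to 0.01 and Fads1 from -0.05 to 0.04. The cause was not tested.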
